A study of Rattus norvegicus with 16 samples.

Results

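The 42 genes described here carry out the handling of fatty acids and triglycerides in adipocytes, from the transcription factors that switch the pathway on to the enzymes that take stored fat apart again. They were chosen as a list of symbols, and a probe was given to a symbol when the RefSeq transcript named in the array design belonged to that gene. All 42 genes had at least 1 probe, among 16678 gene symbols named on the array, and the brightest probe of a gene in a tissue gave its value. The arrays were hybridized with RNA from the lungs and adipose tissue of 8 male Brown Norway rats, an inbred strain that mounts strong allergic responses. The labels give an age of 7 weeks for the rats that entered sensitization. For 3 weeks, weekly doses of 45 µg of house dust mite in aluminium hydroxide were given under the skin of the 5 HDM rats. A further 3 weeks of challenge followed, with 120 µg into the nose on 3 occasions a week. The 3 control rats had received saline in aluminium hydroxide, followed by saline into the nose, so that the adjuvant was common to both groups. The fat depot is not given in the sources used here. Each rat gave 1 lung array and 1 adipose array, and each tissue was hybridized on 1 slide, with HDM rats 1 to 4 in the upper row and HDM rat 5 and the 3 control rats in the lower row.

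Fat cells build triglycerides from fatty acids that are either made from glucose or cleaved from circulating lipoproteins, and they keep them in a droplet coated by perilipins. Lipases on that droplet release the fatty acids and glycerol when hormones call for fuel. The nuclear receptor Pparg and the factor Cebpa drive most of these genes during fat cell formation, whereas Srebf1 and Mlxipl answer to insulin and glucose. In the lung the same enzymes serve other cells as well, among them alveolar macrophages, which need Pparg to clear surfactant lipid, and type 2 cells, which make it.

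All signals below are log2 processed signals minus the 75th percentile of their array, so that 0 is the level of a probe brighter than 75% of the array. The 75th percentile lay between 110.9 and 240.0 intensity units on the adipose arrays and between 376.1 and 487.8 on the lung arrays. Between 51.0% and 60.3% of probes were well above background on an adipose array, against 62.2% to 68.8% on a lung array. Of the 42 genes, 40 were well above background on all 8 adipose arrays and 38 on all 8 lung arrays. None of the lung arrays measured Pnpla3 well above background, 2 of them did so for Plin1 and 5 for Aqp7, and 2 adipose arrays did so for Acacb. Levels are not compared between genes, since probes differ in brightness.

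The transcription start regions of the genes are shown for 4 members on which the results turn: Lpin1, which had the smallest p-value in adipose tissue, Plin2, which was higher in HDM rats of both tissues by unadjusted p, its relative Plin1, the droplet coat gene best known from fat cells, and Pparg, the regulator that was lower in the lungs of HDM rats. The sequences are RefSeq promoters of the GRCr8 assembly, 250 bases before to 50 bases after the start, for Lpin1 (chr6:45108893-45109192, minus strand), Plin2 (chr5:106228969-106229268, minus strand), Plin1 (chr1:143086099-143086398, minus strand) and Pparg (chr4:150096808-150097107, plus strand), written 5′ to 3′ on the strand of the gene. Capitals mark the matches, none of which overlapped another here, to 6 motifs searched on both strands: CACGTG, the E-box, CCAAT, the TATA box TATAAA, TCACNCCAC, the sterol regulatory element, the direct repeat bound by Pparg with its partner RXR, and TTGCGCAA, a C/EBP palindrome.
Lpin1: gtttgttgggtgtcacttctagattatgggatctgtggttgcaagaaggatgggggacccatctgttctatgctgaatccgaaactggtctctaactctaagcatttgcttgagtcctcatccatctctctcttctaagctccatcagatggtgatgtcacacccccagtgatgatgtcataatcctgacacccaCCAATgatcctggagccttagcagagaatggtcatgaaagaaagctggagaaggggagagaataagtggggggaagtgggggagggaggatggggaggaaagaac
Plin2: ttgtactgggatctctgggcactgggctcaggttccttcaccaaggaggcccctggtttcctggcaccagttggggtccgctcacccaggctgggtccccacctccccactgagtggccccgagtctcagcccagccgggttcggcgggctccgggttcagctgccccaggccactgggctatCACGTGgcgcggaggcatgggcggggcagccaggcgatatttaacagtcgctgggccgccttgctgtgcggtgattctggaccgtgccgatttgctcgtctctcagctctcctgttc
Plin1: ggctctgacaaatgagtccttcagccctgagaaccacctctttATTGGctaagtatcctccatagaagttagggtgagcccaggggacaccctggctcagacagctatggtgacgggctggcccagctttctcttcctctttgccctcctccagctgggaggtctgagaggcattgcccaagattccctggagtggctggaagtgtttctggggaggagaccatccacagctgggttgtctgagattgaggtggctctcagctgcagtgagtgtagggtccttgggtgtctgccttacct
Pparg: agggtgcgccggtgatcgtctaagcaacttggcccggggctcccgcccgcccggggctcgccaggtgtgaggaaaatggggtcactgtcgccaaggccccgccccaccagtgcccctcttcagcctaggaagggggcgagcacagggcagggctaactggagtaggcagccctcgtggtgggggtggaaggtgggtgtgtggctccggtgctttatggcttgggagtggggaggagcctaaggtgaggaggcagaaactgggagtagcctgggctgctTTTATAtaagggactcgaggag

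The E-box of Plin2 began 67 bases before the start, and the CCAAT of Lpin1 began 55 bases before it. Promoters were at hand for 28 of the 42 genes. CACGTG was found in 3 of these 28 promoters (Elovl5, Plin2 and Mgll), which is 10.7%, against 6.65% of all 27457 rat promoters. CCAAT was found in 12 of 28 (42.9%, against 37.74%) and TATAAA in 5 of 28 (17.9%, against 14.26%). The sterol element, the Pparg repeat and the C/EBP palindrome had no exact match in the 28 promoters and occurred in 1.13%, 0.06% and 0.2% of all promoters. A match describes these letters only.

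Some samples stood apart, as detailed further on. Epididymis genes were high in the adipose samples of HDM rat 1 and control rat 1, the adipose array of HDM rat 2 had many outlier spots, and fat cell markers were high in the lungs of HDM rats 1, 2 and 5 and control rat 3. Several fold changes are also given without these samples.

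The tissue labels were first checked. The adipocyte hormone Adipoq was 9.06 log2 units (SE 0.63) higher in adipose tissue than in the lung of the same rat, in 8 of 8 rats. Sftpc, the surfactant protein of type 2 cells, was higher in the lung of all rats, where all 8 arrays measured it well above background, against 3 of the adipose arrays. Adipoq was well above background on all 8 adipose arrays, so that both labels matched their defining markers.

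Most of the lipid genes marked adipose tissue. In the within-rat comparison, 34 of 42 genes were higher in adipose tissue at an adjusted p below 0.05 and a fold change above 1.5 (limma, Benjamini–Hochberg over all 45598 probes) and 0 were lower. Of all probes 54.3% were called, 39.4% higher and 14.9% lower, against 81% of the lipid genes, and the median of the 42 differences was 3.11 log2 units against 0.50 over all probes. The same 34 genes had the higher signal in adipose tissue in every rat with a value. Tissue and slide cannot be told apart in this comparison.

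Fabp4, the main fatty acid carrier of the adipocyte, differed by 7.83 log2 units (SE 0.37, 228-fold). Aqp7, the channel through which glycerol leaves the fat cell, and Plin1, the perilipin that guards the droplet of fat cells, were called higher as well, but 5 and 2 of the 8 lung arrays measured them well above background, so that no fold is given. Another droplet protein, Plin4, differed by 7.10 (SE 0.43) over 7 rats, HDM rat 2 lacking a value. Pck1, which supplies glycerol phosphate, differed by 6.55 (SE 0.57, 93.9-fold). Both Fabp4 and Pck1 differed less in HDM rats 1, 2 and 5 and control rat 3, whose lungs had high fat cell markers. In these rats the differences were 6.70 to 7.01 for Fabp4 and 4.90 to 5.37 for Pck1. In the other rats they were 7.94 to 9.17 and 6.04 to 8.78. All 7 genes of glycerol phosphate and triglyceride synthesis, all 5 of lipolysis and all 4 regulators were among those called higher. Pparg was 3.54 log2 units higher (SE 0.22) and the lipase Pnpla2 2.61 (SE 0.27). For Pnpla3, an acyltransferase and lipase of the droplet, only a bound can be given, at least 3.57-fold higher in adipose tissue, because none of the lung arrays measured it well above background.

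A smaller group of 8 genes was not called between the tissues. Plin2, the perilipin found on droplets of nearly all cells, differed by 0.06 log2 units (SE 0.19) and was higher in adipose tissue in 5 of 8 rats. The desaturase Fads1 had the lower signal in adipose tissue in all 8 rats, with differences between -0.94 and -0.06 and a mean of -0.53 (SE 0.14, limma adjusted p = 0.0113, fold below 1.5). The others were the carboxylase Acacb, the desaturase Fads2, the carrier Fabp5, the caveolar protein Cav1 and the oxidation genes Cpt1a and Acadm. Mitochondrial oxidation showed the smallest median difference of the steps, 0.98.

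**Figure D1:**
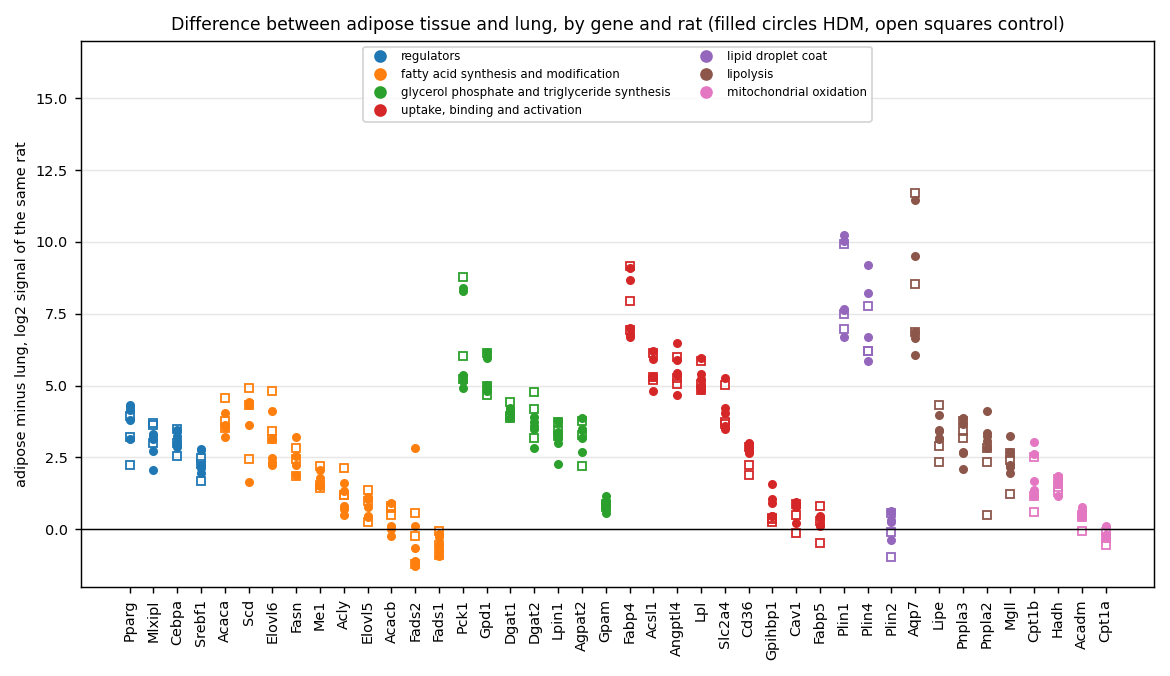
Difference in log2 signal between adipose tissue and lung of the same rat (vertical axis, log2 units) for each of the 42 genes, grouped and coloured by step; filled circles are the 5 HDM rats and open squares the 3 control rats. Aqp7, Plin1, Fabp4 and Plin4 lie high, the first of these and Plin1 against lung signals that were partly at background, whereas Plin2, Fads1, Fads2 and Cpt1a lie around 0.

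The central question was whether house dust mite shifted these genes in adipose tissue. No member was called there, and neither was any of the 45598 probes (0%, smallest adjusted p = 0.0853). At an unadjusted p below 0.05, 1 gene was higher and 2 were lower in HDM rats, together 7.14% of the 42, against 9.9% of all probes (1.02% higher and 8.88% lower). Among probes well above background on all adipose arrays that share was 4.77%. The groups did not overlap for 3 of the 40 genes with a value in every rat (7.5%), 1 higher and 2 lower in HDM rats, against 6.26% of all probes (1.54% higher and 4.72% lower) and 5.42% of those well above background. Of the 42 fold changes 27 were positive, and their median was 0.14 log2 units, against -0.15 over all probes and 0.03 over probes well above background on all arrays. This median became -0.06 when control rat 1 was left out and -0.13 when the arrays were scaled to 6 adipocyte markers. Over the 22 alternatives it ran from -0.13 to 0.44. The 95% interval of the fold change included a 1.5-fold change in some direction for 39 of 42 genes, so that a change of this size is not excluded for them.

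**Figure D2:**
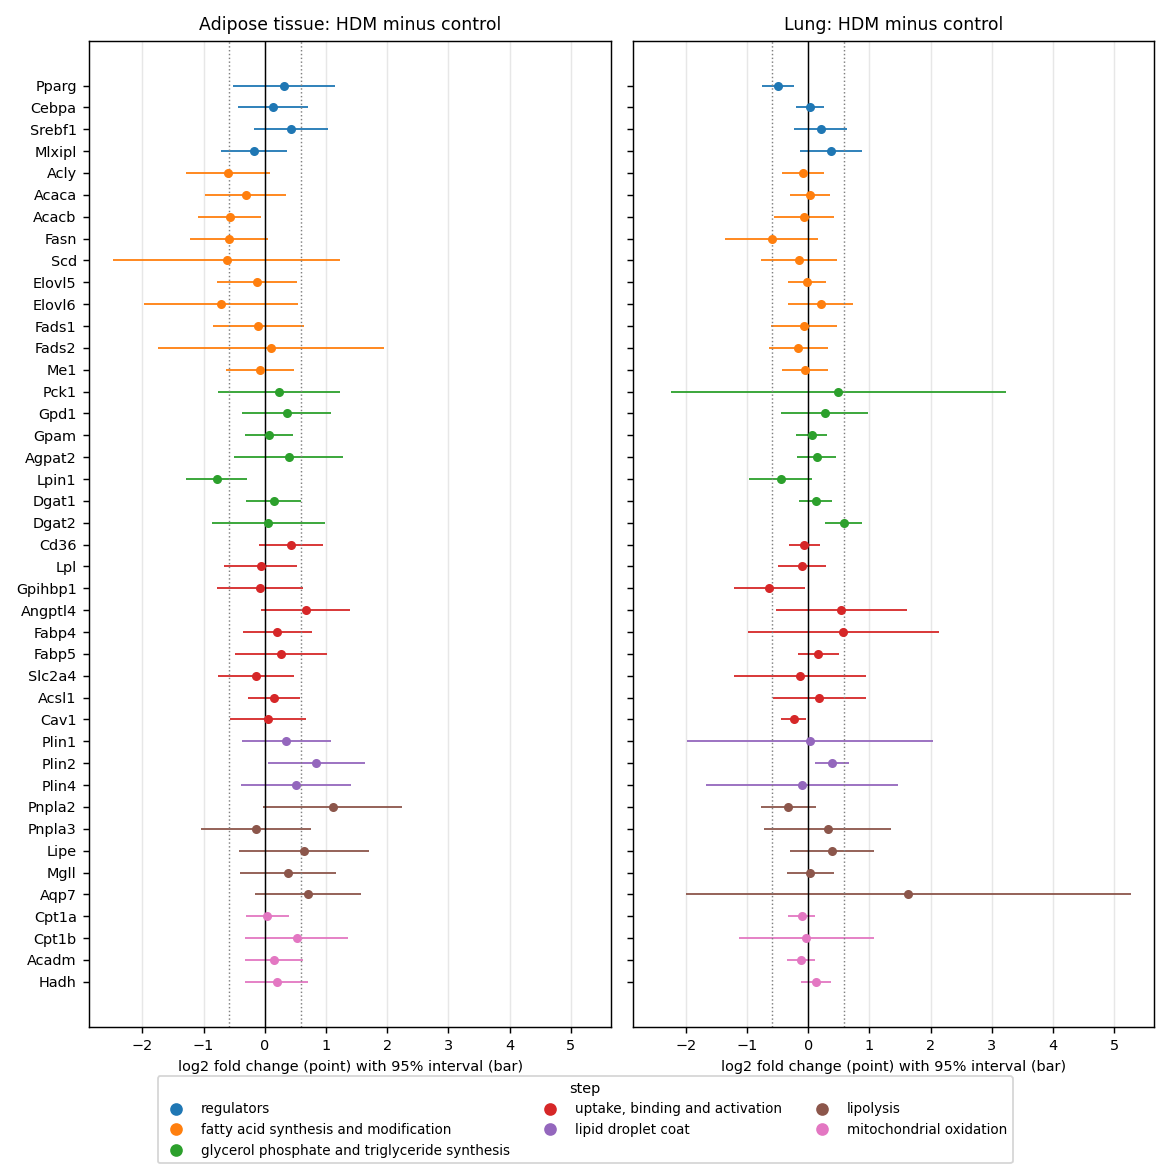
Log2 fold change between 5 HDM and 3 control rats for the 42 genes in adipose tissue (left) and lung (right), with the 95% interval from limma as a bar, coloured by step; dotted lines mark a 1.5-fold change. In adipose tissue the genes of fatty acid synthesis lie mostly to the left of 0 and those of lipolysis mostly to the right, and nearly all bars cross 0; in the lung the bars of Pck1, Plin1 and Aqp7 are the longest.

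Lpin1, the phosphatase that makes diacylglycerol on the way to triglycerides, was the member with the smallest p-value in adipose tissue. Its log2 signal was -1.12, -0.72, -1.13, -1.61 and -1.19 in HDM rats 1 to 5 and -0.37, -0.21 and -0.52 in control rats 1 to 3. All HDM rats thus lay below all control rats. The log2 fold change was -0.78 (SE 0.22, 1.72-fold lower, limma p = 0.00666, adjusted p = 0.351), and the exact two-sided permutation test gave p = 0.0179, the smallest that 5 against 3 rats allow. The unadjusted p stayed below 0.05 in 20 of 22 alternative analyses, and the adjusted p ranged from 0.219 to 0.973. Not all alternatives could move the unadjusted p. Dropping the fold threshold left it unchanged. Averaging the probes of a gene hardly altered it for genes with 1 probe, such as Lpin1, Acacb and Plin2. The deposited log2 table held nearly the same intensities. The counts of alternatives given below share this limit. The fold change ran from -1.05 with the arrays scaled to the adipocyte markers to -0.41 with normexp background correction. Among the other enzymes of the step, Dgat1 and Dgat2, which add the last fatty acid, had fold changes of 0.15 and 0.05, and those of Gpam, Agpat2, Gpd1 and Pck1 lay between 0.07 and 0.39. Without control rat 1 the values of Dgat2, Pck1 and Agpat2 were -0.42, -0.27 and -0.07, and that of Lpin1 was -0.78. A second Gpam probe of nearly the same brightness was at -0.43 (SE 0.21, limma adjusted p = 0.56). The difference between Lpin1 and these enzymes was not tested.

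Fatty acid synthesis had the lowest median of the steps, -0.44 log2 units, and 9 of its 10 fold changes were negative, as were those of 64.2% of all probes. Between 5 and 10 of the 10 were negative over the alternatives, with medians between -0.71 and -0.15. Acacb, the mitochondrial acetyl-CoA carboxylase whose product blocks the entry of fatty acids into mitochondria, was the 1 gene of the step past an unadjusted p of 0.05. Its log2 signal was -4.72, -4.20, -4.34, -5.03 and -4.79 in the HDM rats and -3.84, -4.16 and -4.11 in the control rats, with no overlap. The fold change was -0.58 (SE 0.23, limma adjusted p = 0.469), but the probe was well above background in 1 HDM and 1 control rat. Its unadjusted p was below 0.05 in 8 of 22 alternatives, and the fold change was -0.11 with quantile normalization. Acly, which makes cytosolic acetyl-CoA, and Fasn, the synthase itself, had fold changes of -0.61 (SE 0.30) and -0.58 (SE 0.28) with limma adjusted p-values of 0.555 and 0.544, and their groups overlapped. Elovl6, Scd and Acaca were at -0.72, -0.62 and -0.31, with intervals that reached well above 0. A second, dimmer Elovl6 probe was at -0.07 (SE 0.76). Without control rat 1, the highest rat for Acly and Elovl6, the values were -0.28 for Acly, -0.82 for Fasn, -0.13 for Elovl6 and -1.26 for Scd. With the replicate number as a block, Scd was at 0.53. That value compared only rats 1 and 3 of each group. HDM rat 2 had no value, and HDM rats 4 and 5 had no control of their number. Without control rat 2, Fasn was at -0.33, Acaca at -0.006 and Scd at 0.004, and without HDM rat 4 Scd was at -0.06. Elovl5, Fads1, Fads2 and the malic enzyme Me1, a source of NADPH, lay between -0.13 and 0.10. Fads2, the 1 positive gene of the step, was at -0.52 without HDM rat 2. Scd had no value for HDM rat 2, and HDM rat 4 stood at 4.59 against 6.67 to 6.97 in the other 3 HDM rats.

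The 3 droplet coat genes had positive fold changes, with a median of 0.51 log2 units that became 0.08 without control rat 1. Plin2 had a log2 signal of 2.70, 3.30, 3.65, 3.39 and 3.43 in the HDM rats and 1.67, 3.05 and 2.65 in the control rats. Of the HDM rats, 4 lay above all control rats and rat 1 lay among them. The fold change was 0.84 (SE 0.34, 1.79-fold, limma p = 0.0407, adjusted p = 0.48, exact permutation p = 0.0357), and it was 0.44 without control rat 1. The unadjusted p was below 0.05 in 13 of 22 alternatives. Plin1 and Plin4 were at 0.35 and 0.51, the latter without HDM rat 2, and at 0.01 and 0.08 without control rat 1.

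Lipolysis had the highest median, 0.64 log2 units, which became 0.03 without control rat 1. Pnpla2, the lipase that removes the first fatty acid from a triglyceride, was at 6.08, 6.47, 6.71, 6.14 and 6.31 in the HDM rats and at 3.79, 6.0 and 5.92 in the control rats. The groups did not overlap, although the lowest HDM rat and the highest control rat were close, and control rat 1 lay far below the rest. The fold change of 1.11 (SE 0.49, limma adjusted p = 0.518) became 0.38 without that rat. Lipe, the hormone-sensitive lipase, and Aqp7 were at 0.64 (SE 0.46) and 0.71 (SE 0.37), with control rat 1 lowest for both, and at 0.03 and 0.25 without it. Mgll, which takes the last fatty acid, was at 0.39 and without that rat at -0.06, and Pnpla3 was at -0.15. Pnpla3 was well above background on 6 of the adipose arrays, and its value lay between -0.28 and 0.15 when 1 rat was left out.

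The regulators and the genes of uptake and oxidation had groups that overlapped in every case. Without control rat 1 the median of the regulators went from 0.22 to -0.08, that of uptake from 0.16 to -0.06 and that of triglyceride synthesis from 0.15 to -0.07. Srebf1 had the smallest p-value of the regulators, with 4.36, 5.29, 5.01, 4.74 and 4.90 in the HDM rats and 3.97, 4.71 and 4.60 in the control rats (fold change 0.43, SE 0.26, limma adjusted p = 0.655). Pparg and Cebpa were at 0.31 and 0.13, and Mlxipl at -0.18. Angptl4, the secreted inhibitor of lipoprotein lipase, led the genes of uptake, with 6.09, 6.81, 6.78, 5.87 and 6.57 in the HDM rats and 5.19, 6.14 and 5.95 in the control rats. Its fold change was 0.67 (SE 0.31, limma adjusted p = 0.541), whereas those of its target Lpl and of Gpihbp1, which anchors that enzyme to the capillary wall, were -0.06 and -0.07. The fatty acid receptor Cd36 was at 0.43 and the glucose transporter Slc2a4 at -0.14, and Fabp4, Fabp5, Acsl1 and Cav1 lay between 0.06 and 0.26. Cpt1b, the muscle and brown fat form of the carnitine transferase, was at 2.44, 2.92, 3.04, 2.61 and 3.09 in the HDM rats and at 1.35, 2.96 and 2.59 in the control rats (fold change 0.52, SE 0.36, limma adjusted p = 0.709). Cpt1a, Acadm and Hadh lay between 0.04 and 0.19. Without control rat 1 the fold changes were 0.20 for Srebf1, -0.09 for Pparg, 0.38 for Angptl4, 0.20 for Cd36 and 0.05 for Cpt1b.

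**Figure D3:**
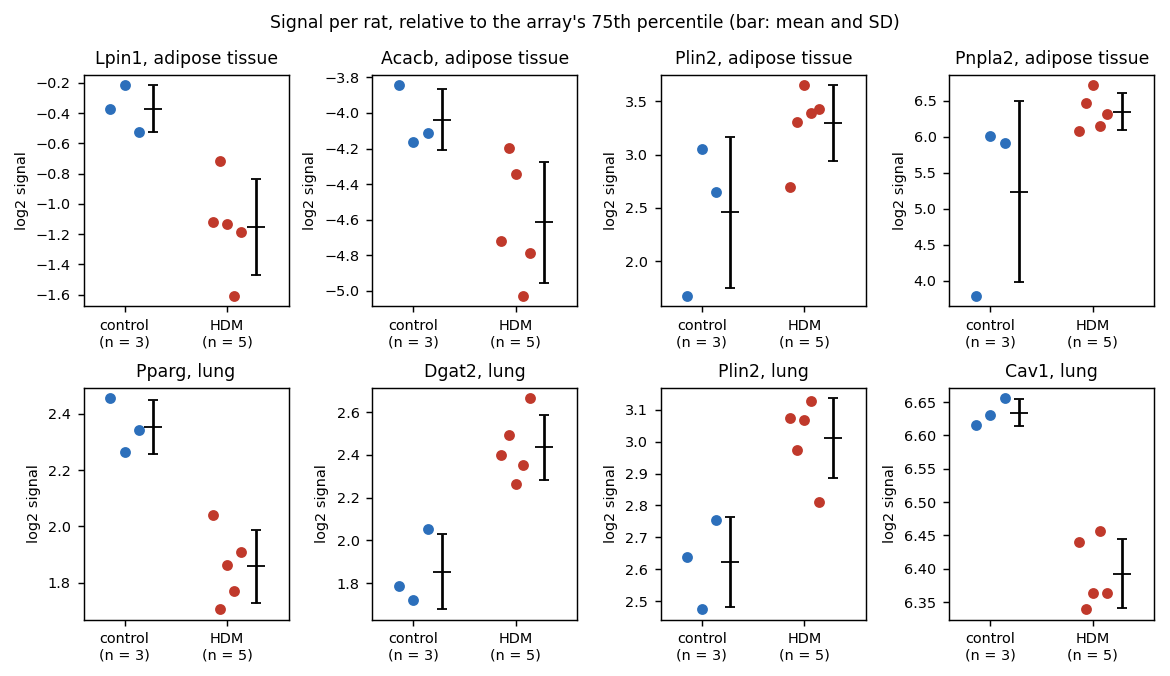
Log2 signal relative to the 75th percentile of the array in each control rat (blue) and HDM rat (red), with the mean and SD in black, for 4 genes in adipose tissue (upper row) and 4 in lung (lower row); each panel has its own vertical scale. The groups are apart for all but Plin2 in adipose tissue, and control rat 1 is the lone low point of Pnpla2 and Plin2 in adipose tissue.

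In adipose tissue the SD within a group had a median of 0.43 log2 units over the 42 genes, against 0.27 over all probes well above background, and ran from 0.13 for Cpt1a to 1.24 for Fads2. Control rat 1 had the lowest signal of all 8 rats in 27 of the 42 genes and the highest in 3, Acly, Acacb and Elovl6. Its median deviation from the control mean was -0.46, against 0.44 in control rat 2, which was highest in 12 genes. The adipocyte markers behaved alike, with a summed linear signal of 1467 in control rat 1 and 2547 in control rat 2, both relative to the 75th percentile, and of 1688 to 2331 in the other 6 rats. All 5 macrophage markers had positive fold changes in HDM fat, with a median of 0.68 and none called, and so had the 5 neutrophil markers, with a median of 2.16 and a smallest limma adjusted p of 0.0853; their part was not tested. In bulk tissue, fewer fat cells and less RNA per fat cell cannot be told apart. The same adipose sample and that of HDM rat 1 carried high signal of epididymis genes: Gpx5, a peroxidase secreted by that organ, stood at 9.61 in HDM rat 1 and 10.16 in control rat 1 and at -3.62 or below in the other 6 rats. The 8 epididymis and testis markers with a probe had a summed signal of 3586 and 4681 in these rats, with Lcn8 brightest in HDM rat 1 and Lcn5 in control rat 1, and of 0.31 to 28.7 in the others, and their part in the lipid gene values was not tested. Without both rats, 0 probes and 0 members were called and the fold changes of Lpin1, Plin2 and Pnpla2 were -0.79, 0.59 and 0.45.

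The adipose array of HDM rat 2 also stood apart. It had 1224 outlier spots, against 355 to 444 on the other adipose arrays, and 222 probes without a value. Fads2 was at -0.11 there and between -3.60 and -2.07 in the other 7 rats. Dio2 and Ppargc1a, which belong to the brown fat markers, were at 0.46 and -0.64 and no higher than -5.75 and -4.06 elsewhere, while Ucp1, the defining gene of brown fat, was at -3.42. Without this array the fold changes of Lpin1, Plin2 and Pnpla2 were -0.89, 0.84 and 1.08.

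In the lung 390 of 45598 probes were called (0.855%, 220 higher and 170 lower), and none of the 42 genes was among them. At an unadjusted p below 0.05, 2 genes were higher and 3 lower, together 11.9% of the 42, against 10.2% of all probes (5.25% higher and 4.93% lower) and 13.9% of those well above background on all lung arrays. The groups did not overlap for 6 of 41 genes (14.6%), 3 higher and 3 lower, against 9.61% of all probes (4.65% higher and 4.97% lower) and 14.6% of those well above background. The median fold change of the 42 genes was 0.03 log2 units, against 0.00 over all probes, and 22 were positive. All 5 neutrophil markers were called higher in the HDM lungs, S100a8 by 4.46 log2 units (SE 0.29) and Csf3r by 2.18 (SE 0.15), and their part in the lipid gene values was not tested.

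Pparg and Dgat2 had the smallest p-values in the lung. Pparg was at 2.04, 1.71, 1.86, 1.77 and 1.91 in the HDM rats and at 2.45, 2.26 and 2.34 in the control rats, so that every HDM rat lay below every control rat. The fold change was -0.49 (SE 0.11, 1.41-fold lower, limma p = 0.00243, adjusted p = 0.119, exact permutation p = 0.0179). It lay between -0.57 and -0.44 in all 22 alternatives, always under 1.5-fold, and the adjusted p ranged from 0.005 to 1. Marco, a receptor of alveolar macrophages, was at -0.40 (limma adjusted p = 0.601), and of the other macrophage markers Cd68 and Adgre1 were at 0.27 and 0.64 with no overlap (limma adjusted p = 0.412 and 0.23) and Csf1r and Mrc1 at 0.14 and -0.13 with overlap. The 5 markers had a median of 0.14, with 3 positive.

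Dgat2, which makes the final ester bond of triglycerides, was at 2.40, 2.49, 2.27, 2.35 and 2.66 in the HDM rats and at 1.79, 1.72 and 2.05 in the control rats. The ranges were apart, and the fold change was 0.58 (SE 0.13, limma p = 0.00231, adjusted p = 0.115, exact permutation p = 0.0179), just short of 1.5-fold. It passed both thresholds with normexp background correction (0.60, limma adjusted p = 0.0120) and with array weights (0.64, limma adjusted p = 0.0337). Dgat1, which catalyzes the same reaction, was at 0.12 (SE 0.12) with overlapping groups.

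Plin2 was the 1 gene with an unadjusted p below 0.05 in both tissues. In the lung its log2 signal was 3.07, 2.97, 3.07, 3.13 and 2.81 in the HDM rats and 2.64, 2.48 and 2.76 in the control rats. The groups were apart, by a narrow margin between HDM rat 5 and control rat 3. The fold change was 0.39 (SE 0.12, 1.31-fold, limma p = 0.0113, adjusted p = 0.256, exact permutation p = 0.0179). Plin1 and Plin4 were at 0.03 and -0.10 with standard errors of 0.87 and 0.68, Plin1 being well above background in no control lung.

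Gpihbp1 was at -3.83, -3.26, -3.11, -3.47 and -4.16 in the HDM rats and at -3.09, -2.69 and -3.00 in the control rats (fold change -0.64, SE 0.25, limma adjusted p = 0.425). Cav1, the coat protein of caveolae, abundant in endothelium and type 1 cells, was at 6.44, 6.34, 6.36, 6.46 and 6.36 in the HDM rats and at 6.62, 6.63 and 6.66 in the control rats. For both genes all HDM rats lay below all control rats, and the change of Cav1 was small, -0.24 (SE 0.09, limma adjusted p = 0.378). The t-test of the methods gave Cav1 an adjusted p of 0.0361, with the change under 1.5-fold. The endothelial markers Pecam1, Cdh5, Vwf and Kdr had fold changes between -0.11 and 0.21, and the type 1 marker Ager was at -0.21 with no overlap (limma adjusted p = 0.517).

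Mlxipl, the glucose-responsive factor, was the third gene whose HDM values all exceeded the control values, at -4.41, -4.21, -3.54, -4.36 and -4.49 against -4.52, -4.55 and -4.64. Its fold change of 0.37 (SE 0.22, limma adjusted p = 0.693) became 0.20 without HDM rat 3, the highest of the lungs. Fasn led the genes of synthesis, with 2.81, 3.16, 2.29 and 3.74 in HDM rats 1, 2, 3 and 5 and 3.62, 3.65 and 3.53 in the control rats. It was measured without HDM rat 4, and the groups overlapped through HDM rat 5 (fold change -0.60, SE 0.32, limma adjusted p = 0.649). Without HDM rat 3 the value was -0.36, and without HDM rat 5 it was -0.84. The lipase Pnpla2 was at 2.83, 3.14, 2.59, 3.31 and 3.25 in the HDM rats and 3.28, 3.19 and 3.57 in the control rats, and Acadm, an enzyme of beta oxidation, at 3.65, 3.84, 3.76, 3.75 and 3.80 against 3.83, 3.81 and 4.01. Their fold changes were -0.33 (SE 0.19) and -0.12 (SE 0.10), with limma adjusted p-values of 0.699 and 0.833, and they became -0.21 and -0.06 without control rat 3. The other members had unadjusted p-values above 0.05 and groups that overlapped.

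The slide rows held both groups only in the lower row, so a row block compares HDM rat 5 with the 3 control rats. In the lung that rat had the highest fat cell marker signal, as given below. With the block Aqp7, Plin1, Fabp4 and Plin4 were at 3.79, 1.83, 1.77 and 1.37 there. The part of that signal in the row block values was not tested. With that block the lung fold changes were -0.44 for Pparg, 0.81 for Dgat2, 0.19 for Plin2, -1.24 for Gpihbp1 and -0.27 for Cav1, and the adipose fold changes were -0.82 for Lpin1, -0.75 for Acacb, 0.97 for Plin2 and 1.07 for Pnpla2. These kept their sign, whereas Fasn in the lung went from -0.60 to 0.14, and Mlxipl there from 0.37 to 0.08. Other signs turned too, among them in adipose tissue those of Acaca (-0.31 to 0.09), Fads1 (-0.10 to 0.31), Lpl (-0.06 to 0.31) and Fads2 (0.10 to -0.78).

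Some of the lipid genes varied widely among the lungs of both groups. Aqp7 was at -2.83, -2.11, -7.35, -5.06 and -1.64 in the HDM rats and at -5.86, -7.83 and -2.60 in the control rats. Fabp4 was at 1.48, 1.85, 0.22, -0.37 and 2.29 in the HDM rats and at 0.15, -0.14 and 1.55 in the control rats. Both groups thus held high and low lungs, and the SD of Aqp7 within a group was 2.47, against 0.04 for Cav1 and a median of 0.29 over the members.

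The fat cell markers followed the same rats. Adipoq was at 1.18, 1.66, -2.01, -1.90 and 2.29 in the HDM lungs and at -1.06, -1.99 and 1.16 in the control lungs. Ucp1, the uncoupling protein that defines brown fat, was at 2.30, 2.41, -4.08, -6.39 and 2.67 in the HDM lungs and at -4.66, -5.73 and 1.13 in the control lungs. In the 4 lungs with high values Ucp1 was also above its level in the adipose tissue of any rat, where it did not exceed -3.42. The summed signal of the 6 adipocyte markers was 21.8, 24.5, 13.7, 9.48 and 34.6 in the HDM lungs and 11.7, 9.01 and 17.1 in the control lungs, and that of the 4 brown fat markers with a probe was 3.72 to 8.50 in these 4 lungs and 0.74 to 1.12 in the others. Their part in the lipid gene values was not tested. Without these 4 lungs, 2 rats a group remained for genes with a value in every lung. With those 2 rats a group, 0 probes and 0 members were called, and the fold changes of Pparg, Dgat2 and Plin2 were -0.54, 0.56 and 0.54. So few rats give little power, so the lack of calls does not show what the 4 lungs contributed. No unadjusted p of these 3 genes was then below 0.05, whereas that of Lipe was (fold change 0.87, against 0.39 with all lungs). Fasn lacked a value for HDM rat 4, so its -1.35 compared HDM rat 3 alone with 2 control rats.

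**Figure D4:**
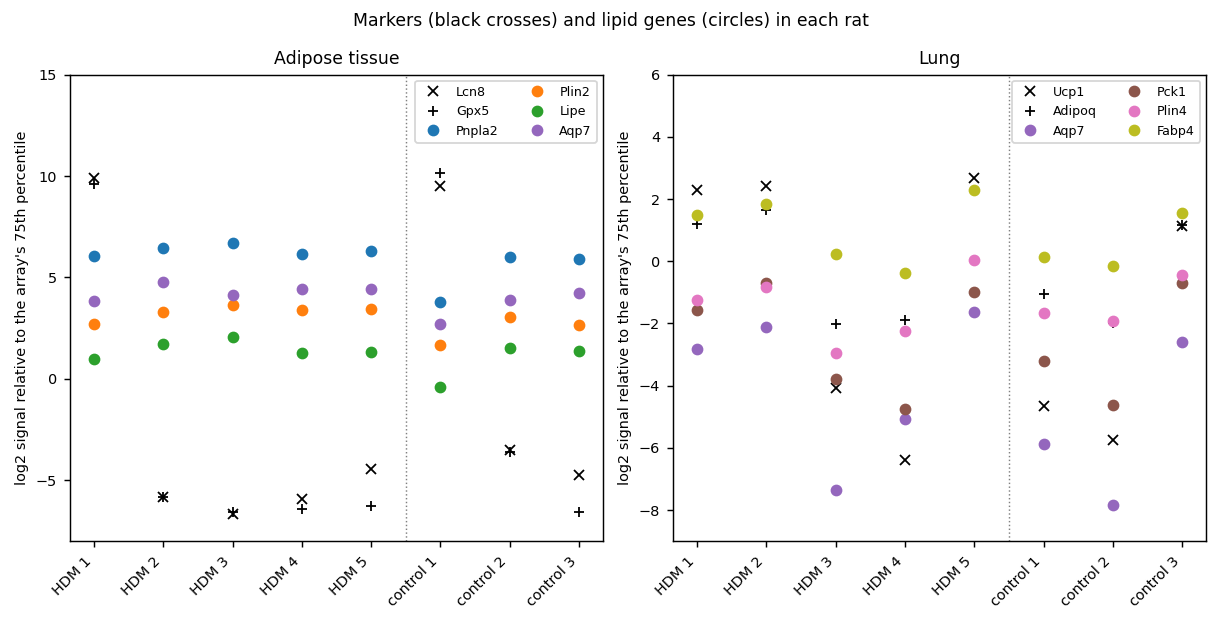
Log2 signal relative to the 75th percentile of the array in each rat for marker genes (black crosses) and lipid genes (coloured circles), in adipose tissue (left) and lung (right); the dotted line separates HDM from control rats. Lcn8 and Gpx5 are high in the adipose tissue of HDM rat 1 and control rat 1, and Ucp1, Adipoq, Aqp7, Pck1, Plin4 and Fabp4 are high in the lungs of HDM rats 1, 2 and 5 and control rat 3.

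The effect of house dust mite was then compared between the tissues within each rat. None of the 42 genes differed at the threshold, and 1 of 45598 probes did (0.00219%). Pnpla2 was the 1 member with an unadjusted p below 0.05, against 7.74% of all probes, with the effect 1.43 log2 units higher in adipose tissue than in lung (SE 0.54, limma adjusted p = 0.603). The difference between its tissues was 2.84 to 4.13 in the HDM rats and 0.51, 2.82 and 2.34 in the control rats, and without control rat 1 its fold changes were 0.38 in adipose tissue and -0.36 in lung. For Plin2 the effects of 0.84 and 0.39 differed by 0.45 (SE 0.39, limma adjusted p = 0.789), and for Pparg those of 0.31 and -0.49 by 0.80 (SE 0.43, limma adjusted p = 0.689).

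Another 55 genes of the same pathways that had a probe were examined beside the members. In adipose tissue none was called, 4 had an unadjusted p below 0.05, all higher in HDM rats (7.27%, against 9.9% of all probes, 1.02% higher and 8.88% lower), and the median fold change was 0.21. Irs2, an adaptor of the insulin receptor, was at 1.56, 1.71, 2.01, 1.38 and 1.34 in the HDM rats and at -0.24, 0.76 and 0.91 in the control rats (fold change 1.12, SE 0.30, limma adjusted p = 0.336). Adrb3, the beta 3 adrenergic receptor that starts lipolysis in rodent fat, was at 4.28, 5.95, 5.06, 4.69 and 5.01 against 3.40, 3.91 and 3.85 (fold change 1.28, SE 0.36, limma adjusted p = 0.355). Neither pair of groups overlapped. The other genes were Insig2, which holds sterol factors in the endoplasmic reticulum, at 0.45, and Hadhb, a subunit of the mitochondrial trifunctional protein, at 0.63. Among the next smallest p-values of these lists were those of G0s2 (0.71), Fabp3 (0.75), Hadha (0.36), Gpat4 (-0.19) and Lpin2 (0.41), the smallest limma adjusted p among them being 0.525.

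In the lung none of the 55 genes was called either, 4 being higher and 3 lower at an unadjusted p below 0.05 (12.7%, against 10.2% of all probes and 13.9% of those well above background), with a median of 0.02. G0s2, the small protein that inhibits Pnpla2, was at 5.82, 5.96, 6.31, 5.86 and 5.83 in the HDM rats and at 5.28, 5.17 and 4.96 in the control rats. Its fold change was 0.82 (SE 0.15, limma adjusted p = 0.058). The groups were apart, and the gene did not pass the adjusted threshold. Glycerol kinase, Gk, was at 0.58 and Lpin2 at -0.47, the oxidation genes Pdk4 and Acaa2 were at -0.86 and 0.34, and the lysosomal lipase Lipa was at 0.37. The smallest p-values of the other lists were those of Insig1 (-0.19), Rxra (-0.20), Insr (-0.42) and Pde3b (0.24).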

How the data were processed

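RNA of 8 rats was hybridized to 16 one-colour Agilent arrays from 50 ng of RNA each. For each array the authors deposited spot intensity values, background-corrected by Agilent Feature Extraction 12.0.3.1 and not normalized between arrays. The authors also deposited a log2 table, in which 99.9% of adipose and 100% of lung values came within 0.1 of intensities scaled as below and centred on each probe's median in a tissue. It held 39 cells with no number. Intensities were used, without control and outlier spots, averaged per probe as log2 values, from which each array's 75th percentile was taken away. No dim probes were left out. HDM and control rats were compared in each tissue with limma 3.58.1 in R 4.3.3, with Benjamini–Hochberg adjustment over 45598 probes, and a probe was called at an adjusted p below 0.05 and a fold change above 1.5. Tissues were compared through the difference within each rat. Permutation tests were exact and two-sided over 56 splits. Probes were named through RefSeq accessions and a table of 47357 genes (21229 probes, 16678 symbols). The model was tested on simulated data. Alternatives covered the test of the methods, normalization, background, dim probes, weights, blocks and rats left out. In the normexp alternative the median spot signal stood in for the mean signal. The gene rule named all members by step, with values in each rat for those called, not overlapping, with an unadjusted p below 0.05 or with the smallest p of a step. The members and lists were chosen with earlier results of these data known. Separate animals were the replicates, and precision is bounded by how few arrays there were. Some genes of the related lists are not reported here.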

Additional observations from a re-analysis of the deposited data

Results flagged for a closer look

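Within the HDM group, 84 sets of values were examined for a single sample far from the rest, and 9 had one, where chance alone flags about 1 set in 20. In adipose tissue, HDM rat 1 stood apart for Elovl6 (2.75, against 0.88 to 1.32 in the other 4 HDM rats), Agpat2 (2.08, against 2.84 to 3.14) and Cav1 (6.64, against 7.15 to 7.31). This sample also carried the epididymis signal described above. HDM rat 2 stood apart for Fads2 (-0.11, against -3.48 to -2.81), and HDM rat 4 for Scd (4.59, against 6.67 to 6.97 in 3 rats).

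In the lung, HDM rat 4 was the lowest for Dgat1 (1.75, against 2.04 to 2.13), Angptl4 (-0.61, against 0.89 to 1.46) and Hadh (4.31, against 4.53 to 4.59). HDM rat 3 was the highest for Fabp5 (5.84, against 5.31 to 5.46).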

How the results depend on the processing

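No member was called in adipose tissue, and none differed in its response between tissues, under any alternative run. In adipose tissue 0 probes were called, except 8 with quantile normalization, 3 with scaling to the median, 5 with dim probes left out, 15 with array weights and 1 with the slide row as a block. Genes with an unadjusted p below 0.05 there numbered 3, and between 0 and 5 over the alternatives. They numbered 5 with normexp, 0 with the row block and 1 to 5 when 1 rat was left out (5 without control rat 2 and 1 without HDM rat 5). In the lung 390 probes became 686 with dim probes left out, 737 with array weights, 25 with the row block, 41 without control rat 1 and HDM rat 1, 0 without the 4 lungs with high Ucp1 (chosen after seeing the data) and 100 to 333 when 1 rat was left out (163, 161 and 210 without HDM rats 1, 2 and 5, and 125, 100 and 175 without control rats 1, 2 and 3), and the test of the methods called 341. The 1 member called there with normexp and with array weights was Dgat2. Genes with an unadjusted p below 0.05 in the lung numbered 5, and between 2 and 7 over the alternatives. They numbered 3 with the row block, 2 without control rat 1 and HDM rat 1 and 2 to 7 when 1 rat was left out. Without the 4 lungs Lipe was such a gene, and Fasn had an HDM value in rat 3 only. The lung median became 0.20 with the row block, which rests on HDM rat 5, the lung with the highest fat cell marker signal. The replicate block gave 0 probes in lung and 0 in adipose tissue. Deviations of same-numbered HDM and control rats correlated at 0.72, 0.23 and 0.10 in adipose tissue and at -0.06, -0.02 and 0.01 in lung. The value of 0.72 came from HDM rat 1 and control rat 1, whose adipose samples both carried the epididymis signal. Whether the numbers pair HDM with control rats cannot be told from these values. They do not bear on the comparison of tissues within a rat. Between tissues, 0 members lower in adipose tissue became 1 with median scaling, 3 with the percentile over bright probes, 1 without a fold threshold and 0 to 1 when 1 rat was left out. The difference of Gpihbp1 between tissues, 0.61, became -0.0826 with the percentile over bright probes, where all probes shifted by -0.19 in place of 0.50. The causes of these changes were not tested.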
